A study of Homo sapiens with 8 samples.

Results

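Axon guidance ligands and receptors were examined in LK2 cells, an established human lung squamous cell carcinoma line, with and without DNp63. DNp63 is the amino-terminally truncated form of p63, a transcription factor of the p53 family that marks basal and squamous epithelium. The set holds every gene whose symbol belongs to the semaphorins, plexins, neuropilins, Eph receptors, ephrins, UNC5 receptors, netrins, Slits or Robo receptors. By this rule there were 68 members among the 26760 genes of the count table, 35 ligands and 33 receptors or co-receptors. The rule uses symbols and no measured value. Of these, 46 had enough counts to be tested, among 12303 tested genes, and 22 did not.

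The study had 8 RNA-seq libraries, with 2 in each of 4 groups. In the constitutive system, LK2 cells expressing DNp63 were set against LK2 cells expressing GFP, and each group had 1 library from cells with pLEX_306 and 1 from cells with pLEX_307. In the inducible system, LK2 cells carrying pLIX_403-DNp63 and given doxycycline at 2 µg/ml for 6 days were set against the same cells with no drug. The uninduced cells thus carried the DNp63 construct too, and no group with the empty inducible vector under doxycycline was analysed here. All cells were grown in RPMI-1640 with serum. The p-values measure the spread between these libraries. In the constitutive system the 2 libraries of a group carried different vectors, so their spread holds any vector difference. In the inducible system the labels do not say whether the 2 replicates were separate cultures or infections, so their spread may be technical.

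Guidance cues steer growing axons by attracting or repelling the growth cone, and the same families act on adhesion, migration and vessel growth in epithelia and tumours. Netrins bind DCC and UNC5 receptors, Slits bind Robo receptors, and semaphorins bind plexins, with neuropilins as co-receptors for many of them. Ephrins are held on the cell surface and signal through Eph receptor tyrosine kinases on a neighbouring cell, and the ephrin-bearing cell can be signalled to in return.

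Total counts ran from 3348421 to 4924534 in the constitutive DNp63 libraries against 2758158 to 4819186 in the GFP libraries. They ran from 5229957 to 8169745 in the induced libraries and from 5067659 to 10372248 in the uninduced libraries. A count of 3 corresponded to between 0.292 and 1.11 CPM (counts relative to the scaled library total) across these depths, which is the level below which a member at 0 could not be seen; this covers counting error only. TP63 stood at 1850.1 and 3816 CPM in the constitutive DNp63 libraries, against 0.739 and 1.91 CPM in the GFP libraries. It stood at 412 and 422 CPM in the induced libraries, against 12.7 and 14.8 CPM in the uninduced libraries. All 4 libraries labelled as expressing DNp63 lay above all 4 others, and the uninduced libraries held some TP63 without the drug. The epithelial markers EPCAM, CDH1, KRT8 and KRT18 summed to between 2966 and 5347 CPM in all 8 libraries. Of the 7 squamous and basal markers, KRT14 was at 0 and PERP carried most of the summed level outside the constitutive DNp63 libraries. All 7 summed to 1877 and 1822 CPM in the constitutive DNp63 libraries, against 1146 and 932 CPM in the GFP libraries, and to 605 and 552 CPM in the induced libraries, against 615 and 629 CPM in the uninduced ones. Without PERP the sums were 1484 and 1117 CPM in the constitutive DNp63 libraries, against 28.8 and 22.2 CPM in the GFP libraries. Without PERP they were 112 and 113 CPM in the induced libraries, against 22.3 and 20.2 CPM in the uninduced libraries. CALML3, KRT6A and TRIM29 rose in both systems, at adjusted p up to 0.000915 in the constitutive and up to 0.0334 in the inducible one. KRT5 and DSG3 rose in the constitutive system and did not pass in the inducible one, and the difference between the systems did not pass either (adjusted p = 0.821 and 0.202). PERP was not called in either system (−0.88, adjusted p = 0.0591, and −0.37, adjusted p = 0.958). CALML3, KRT6A and TRIM29 thus rose in both systems, while the other listed squamous markers were not called in both. KRT5 also differed within the constitutive DNp63 pair, at 398 and 18.8 CPM. The part of these markers in the guidance gene results was not tested. In such bulk libraries more cells of a kind and more RNA per cell cannot be told apart. The 5 endothelial markers summed to between 0 and 2.54 CPM in each library, and the 5 leukocyte markers to between 0.494 and 3.71 CPM. Of these, PECAM1, CDH5 and the T cell marker CD3E were at 0 in every library. The 8 neuronal markers summed to between 231 and 364 CPM and the 4 glial markers to between 43.0 and 86.7 CPM. The 6 fibroblast markers summed to between 8.28 and 30.5 CPM.

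**Figure D1:**
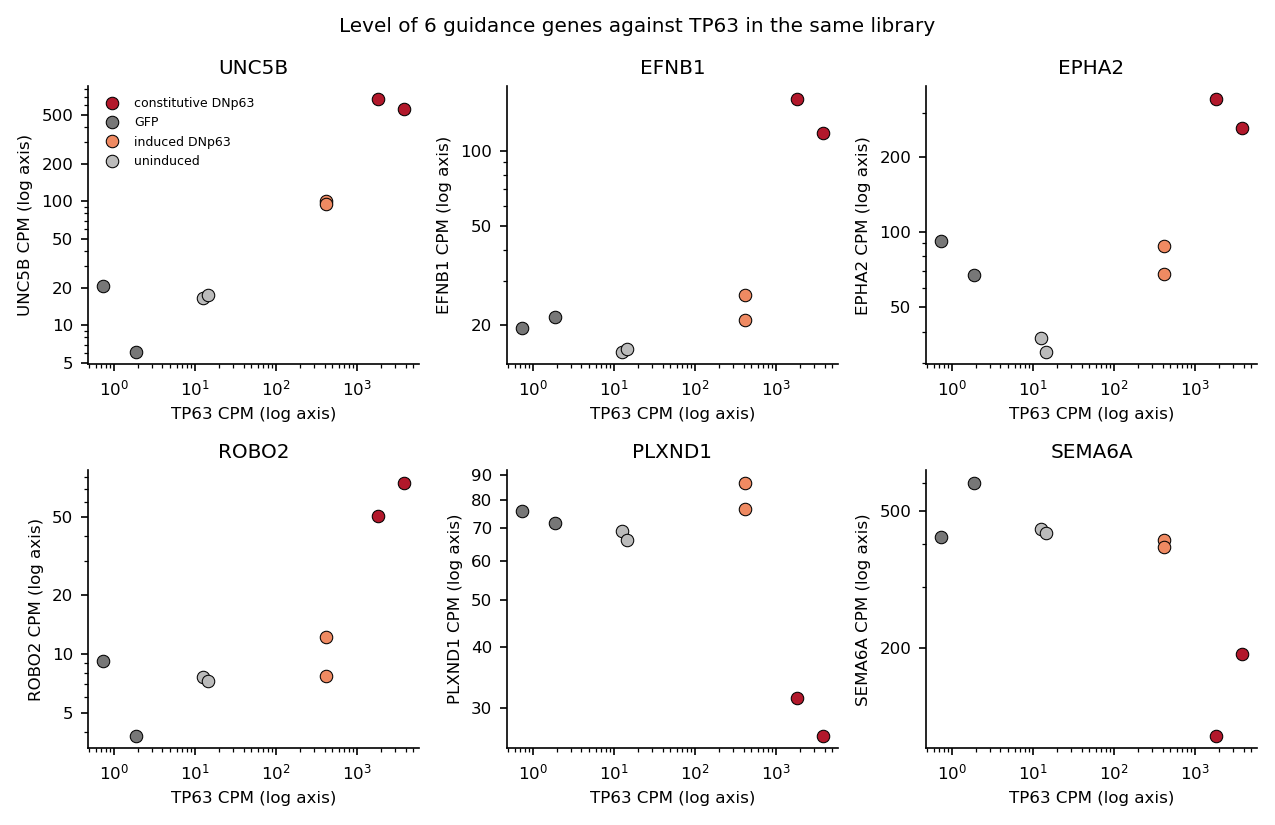
TP63 level on the horizontal axis and the level of a guidance gene on the vertical axis, both in CPM on log axes, with 1 point for each of the 8 libraries coloured by group. The constitutive DNp63 libraries sit at the highest TP63 levels, the induced libraries next, the uninduced libraries below them and the GFP libraries lowest.

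Over both systems averaged, 8 of the 46 tested members passed the threshold of an adjusted p of 0.05, 6 of them higher and 2 lower with DNp63. That is 17.4% of the tested members, where 5.67% of all tested genes were called. Of all tested genes 3.26% were called higher and 2.41% lower. UNC5B, EFNB1, EPHA2, ROBO2, PLXNB3 and SEMA4A were the 6 that rose, and SEMA6A and PLXND1 were the 2 that fell. The median log2 fold change of the tested members was 0.27, beside −0.01 over all tested genes, and 38 members did not pass. Among the receptors and co-receptors, 4 of 20 tested rose and 1 fell, and among the ligands 2 of 26 tested rose and 1 fell. The members together took 0.349% and 0.390% of all counts in the constitutive DNp63 libraries, against 0.250% and 0.274% in the GFP libraries. Their share was 0.227% in each induced library, against 0.218% and 0.212% in the uninduced libraries.

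In the constitutive system alone 9 members passed, 7 higher and 2 lower, which is 19.6% of those tested beside 8.16% of all tested genes (4.17% higher and 3.99% lower). They were the same 8 genes as in the average plus SEMA4B. In the inducible system alone 1 member passed, UNC5B, which is 2.17% of those tested beside 0.284% of all tested genes (0.236% higher and 0.0488% lower).

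**Figure D2:**
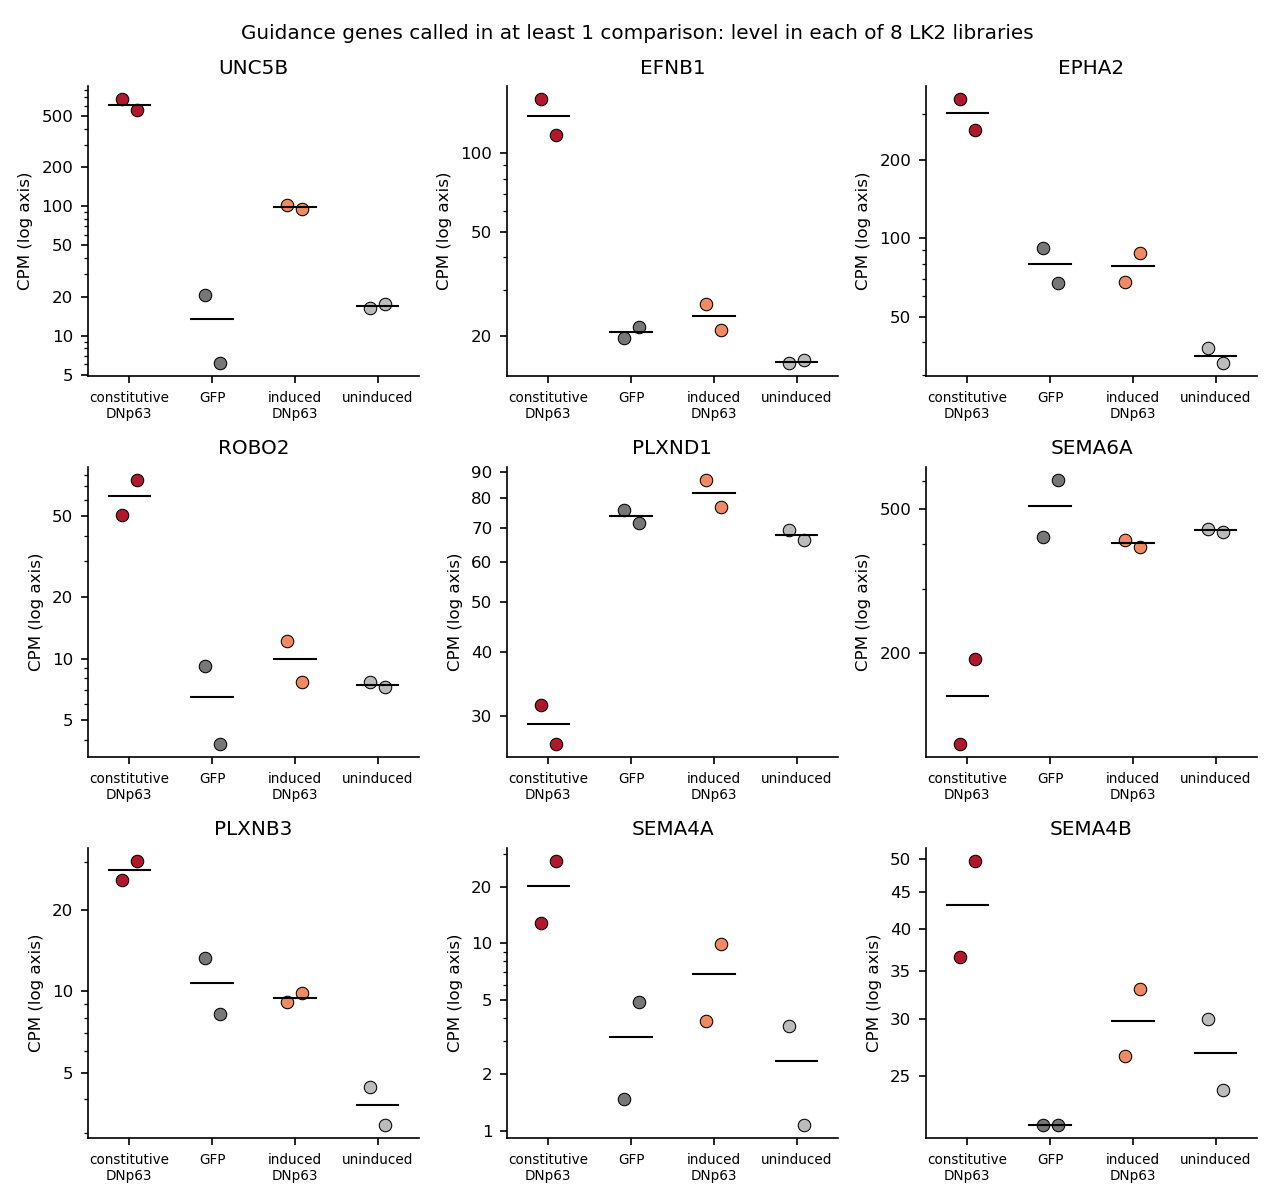
Level in CPM, on log axes that do not start at 0, of the 9 guidance genes that passed the test in at least 1 comparison, with 1 point per library and a bar at the mean of the 2 libraries of each group. The induced libraries of UNC5B, at 102 and 94.8 CPM, stand well above the uninduced ones, at 16.5 and 17.6 CPM. Among others, EPHA2, PLXNB3 and SEMA4A also have both induced libraries above both uninduced ones, with smaller fold changes. SEMA6A and PLXND1 are lower in the constitutive DNp63 libraries.

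UNC5B, a netrin receptor that mediates repulsion and is also known as a dependence receptor and an endothelial guidance receptor, rose in both systems. It stood at 674 and 553 CPM in the constitutive DNp63 libraries, against 20.7 and 6.14 CPM in the GFP libraries. It stood at 102 and 94.8 CPM in the induced libraries, against 16.5 and 17.6 CPM in the uninduced libraries. The groups did not overlap in either system, and the GFP libraries differed from each other more than the uninduced ones did. The log2 fold change was 5.60 ± 0.43 in the constitutive system (SE, adjusted p = 7.28e-05), a 48.6-fold difference. In the inducible system it was 2.52 ± 0.37 (adjusted p = 0.0226), a 5.75-fold difference. Averaged over the systems it was 4.06 ± 0.28 (adjusted p = 2.46e-05). Leaving out any 1 library kept the averaged and the constitutive call, although the constitutive value was 6.63 without GFP replicate 1 and 4.87 without GFP replicate 2. The inducible call was lost without either induced library (adjusted p = 0.305 and 0.215) or either uninduced library (0.346 and 0.449), with values between 2.47 and 2.57.

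An antisense gene, UNC5B-AS1, overlaps UNC5B. It had 132 and 99 counts in the constitutive DNp63 libraries, against 9 and 15 in the GFP libraries, and UNC5B itself had 2360 and 2850 counts against 56 and 29. In the induced libraries UNC5B-AS1 had 17 and 14 counts, against 5 and 12 in the uninduced libraries. No source used here gives the strand setting of the counting, so reads of the pair cannot be told apart with certainty.

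The other UNC5 receptors were near the floor: UNC5C had 0 counts in all 8 libraries, and UNC5A and UNC5D had too few to be tested. Of the netrins, the ligands of this receptor family, neither tested gene passed. NTN4, a laminin-related netrin of basement membranes, had 5.14 and 7.56 CPM in the constitutive DNp63 libraries, against 11.5 and 12.7 CPM in the GFP libraries. It had 7.66 and 8.07 CPM in the induced libraries, against 6.84 and 4.86 CPM in the uninduced libraries. Its groups thus stood in opposite order in the 2 systems, and its averaged log2 fold change was −0.23 ± 0.25. NTN1, the ligand best known for guiding commissural axons, had 4.57 and 9.50 CPM in the constitutive DNp63 libraries, against 1.48 and 3.60 CPM in the GFP libraries. It had 2.35 and 4.72 CPM in the induced libraries, against 2.82 and 2.24 CPM in the uninduced libraries. The groups overlapped in the inducible system, and the averaged value of 0.94 ± 0.42 did not pass (adjusted p = 0.258).

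ROBO2, a receptor for Slit ligands that mediates midline repulsion, stood at 50.9 and 75.1 CPM in the constitutive DNp63 libraries, against 9.24 and 3.81 CPM in the GFP libraries. It had 12.2 and 7.67 CPM in the induced libraries, against 7.65 and 7.29 CPM in the uninduced libraries. The constitutive pair stood clear of the other 6 libraries, while the induced and uninduced values lay close together. The constitutive log2 fold change was 3.35 ± 0.41 (adjusted p = 0.000914) and the averaged one 1.90 ± 0.28 (adjusted p = 0.00311), and both calls held without any 1 library. The constitutive value was 4.04 without GFP replicate 1 and 2.76 without GFP replicate 2. The inducible value was 0.44 ± 0.39 (adjusted p = 0.980).

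ROBO1, the most abundant Robo receptor, had 244 and 438 CPM in the constitutive DNp63 libraries, against 201 and 225 CPM in the GFP libraries. It had 143 and 131 CPM in the induced libraries, against 134 and 152 CPM in the uninduced libraries. Its constitutive log2 fold change of 0.68 ± 0.25 did not pass (adjusted p = 0.133), and the averaged value was 0.31 ± 0.18. The constitutive value passed with the vector (pLEX_306 or pLEX_307, which a DNp63 and a GFP library share) as a block in the fit (0.63, adjusted p = 0.0365). Without constitutive DNp63 replicate 1 both passed, at 1.03 in the constitutive comparison (adjusted p = 0.00594) and 0.48 averaged (adjusted p = 0.0341), while without constitutive DNp63 replicate 2 they were 0.196 and 0.066. Of the Slits, the secreted ligands of these receptors, SLIT2 had 18.6 and 5.24 CPM in the constitutive DNp63 libraries, against 4.80 and 4.45 CPM in the GFP libraries. It had 3.58 and 4.33 CPM in the induced libraries, against 3.42 and 3.99 CPM in the uninduced libraries. Constitutive DNp63 replicate 1 alone was high, and the averaged value was 0.70 ± 0.40, which did not pass. It was 0.12 without constitutive DNp63 replicate 1 and 1.04 without constitutive DNp63 replicate 2, where it passed (adjusted p = 0.0478).

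EFNB1, a transmembrane ephrin that binds EphB receptors, stood at 161 and 118 CPM in the constitutive DNp63 libraries, against 19.6 and 21.6 CPM in the GFP libraries. It had 26.4 and 21.0 CPM in the induced libraries, against 15.7 and 16.1 CPM in the uninduced libraries. Both DNp63 groups lay above their own controls, but the induced libraries were near the GFP ones. The constitutive log2 fold change was 2.75 ± 0.24 (adjusted p = 0.000171) and the averaged one 1.67 ± 0.17 (adjusted p = 0.000274), and both calls held without any 1 library. The inducible value was 0.58 ± 0.23 (adjusted p = 0.702). EFNB1 had the highest mean CPM of the ephrins over all 4 groups, which rested on the constitutive DNp63 libraries. None of the other 6 tested ephrins passed, among them EFNA1, a ligand of EphA2, with 0.79 ± 0.33 averaged over the systems (adjusted p = 0.222). EFNA1 stood at 12.3 and 10.3 CPM in the constitutive DNp63 libraries, against 10.3 and 4.87 CPM in the GFP libraries. It stood at 5.43 and 8.85 CPM in the induced libraries, against 4.63 and 2.82 CPM in the uninduced libraries.

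EPHA2, the EphA receptor most studied in epithelial tumours, stood at 341 and 260.5 CPM in the constitutive DNp63 libraries, against 92.0 and 67.6 CPM in the GFP libraries. It had 68.2 and 88.1 CPM in the induced libraries, against 37.8 and 33.2 CPM in the uninduced libraries. Neither system's groups overlapped, yet the induced libraries lay at the level of the GFP libraries. The constitutive log2 fold change was 1.92 ± 0.24 (adjusted p = 0.000909) and the averaged one 1.53 ± 0.17 (adjusted p = 0.000460), and both calls held without any 1 library. The inducible value was 1.14 ± 0.24 and did not pass (adjusted p = 0.126). It passed with the vector as a block in the constitutive system (adjusted p = 0.00811). With the inducible libraries fitted alone it passed (1.14 ± 0.15, adjusted p = 4.52e-06).

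EPHA4, an Eph receptor that binds ephrins of both classes, had 86.0 and 39.6 CPM in the constitutive DNp63 libraries, against 113 and 77.9 CPM in the GFP libraries. It had 61.6 and 56.8 CPM in the induced libraries, against 94.6 and 102 CPM in the uninduced libraries. The constitutive and GFP values overlapped, although each constitutive library lay below the GFP library with its own vector, and the induced and uninduced values did not overlap. The averaged log2 fold change was −0.67 ± 0.22 and did not pass (adjusted p = 0.125). It passed with the vector as a block in the constitutive system (−0.71, adjusted p = 0.00362), without constitutive DNp63 replicate 1 (−0.998, adjusted p = 0.00369) and with no filter on low counts (adjusted p = 0.00183). Without constitutive DNp63 replicate 2 it was −0.43 (adjusted p = 0.120). EPHB4, a receptor of ephrin-B2 and the Eph receptor with the highest mean CPM over all 4 groups, though below EPHA2 in the constitutive DNp63 group, had 133 and 201 CPM in the constitutive DNp63 libraries, against 183 and 147 CPM in the GFP libraries. It had 164 and 179 CPM in the induced libraries, against 165 CPM in each uninduced library, with an averaged value of 0.04 ± 0.16. EPHA7 was scarce, at 1.43 and 0.194 CPM in the constitutive DNp63 libraries, against 1.48 and 2.33 CPM in the GFP libraries. It had 0.988 and 2.16 CPM in the induced libraries, against 3.62 and 3.40 CPM in the uninduced libraries. Its averaged value of −1.30 ± 0.56 did not pass (adjusted p = 0.239).

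The promoter windows of EFNB1, EPHA2 and PLXND1 are shown because the first pair rose and the third fell in the constitutive system. Each runs from 250 bases before to 50 after the RefSeq gene start on GRCh38.p14 and is written 5′ to 3′ on the gene's own strand. Capitals mark a match to 2 copies of CNTG with 6 other bases between them, searched on both strands and chosen after the values were seen. The spacing is that of a p53-family response element, but CNTG is a rough pattern and not the core sequence of such an element. The EFNB1 window is chrX:68828771-68829070 on the plus strand, with its match 54 bases before the start. The EPHA2 window is chr1:16156020-16156319 on the minus strand, with its match 36 bases before the start. The PLXND1 window is chr3:129606627-129606926 on the minus strand, with no match.
EFNB1: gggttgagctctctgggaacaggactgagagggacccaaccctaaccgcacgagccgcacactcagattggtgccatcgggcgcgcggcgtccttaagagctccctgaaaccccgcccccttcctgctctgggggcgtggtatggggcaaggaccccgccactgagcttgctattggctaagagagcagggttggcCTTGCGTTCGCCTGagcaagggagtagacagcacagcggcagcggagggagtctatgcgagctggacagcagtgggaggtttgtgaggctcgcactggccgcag
EPHA2: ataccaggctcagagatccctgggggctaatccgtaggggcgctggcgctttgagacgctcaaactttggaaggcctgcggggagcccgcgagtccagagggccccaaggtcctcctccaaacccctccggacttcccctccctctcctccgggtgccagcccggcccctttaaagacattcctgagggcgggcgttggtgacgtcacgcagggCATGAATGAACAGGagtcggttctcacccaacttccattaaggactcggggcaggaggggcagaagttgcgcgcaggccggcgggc
PLXND1: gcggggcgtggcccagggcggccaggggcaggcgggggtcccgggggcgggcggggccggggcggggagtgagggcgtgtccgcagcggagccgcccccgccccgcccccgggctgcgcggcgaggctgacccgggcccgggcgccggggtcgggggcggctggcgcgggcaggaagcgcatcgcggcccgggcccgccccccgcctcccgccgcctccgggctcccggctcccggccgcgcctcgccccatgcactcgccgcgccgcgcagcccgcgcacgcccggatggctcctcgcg

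Of the 9 guidance genes called in at least 1 comparison, 7 had promoter windows, 13 windows in all. A match was found in 5 windows (38.5%), 1 each for EFNB1, EPHA2, ROBO2, SEMA4A and PLXNB3, where 14.8% of 35116 windows of the same length held one. SEMA4B, which also rose in the constitutive system, had no match in any of its 3 windows. UNC5B and SEMA6A are not among the 7. The shares of 38.5% and 14.8% cannot show an excess of matches, because the pattern was chosen after the values were seen. Several of the 13 windows also belong to the same gene, so they are not independent. No conclusion is drawn from these shares. A match describes letters in the window, not a bound site.

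SEMA6A, a transmembrane semaphorin that binds A-type plexins, had the highest mean CPM of the tested semaphorins over all 4 groups, though not per kb of exon, and fell in the constitutive system and the average. It stood at 111 and 192 CPM in the constitutive DNp63 libraries, against 419 and 602 CPM in the GFP libraries. It had 410.4 and 393 CPM in the induced libraries, against 442 and 431 CPM in the uninduced libraries. The constitutive pair was lower than all 6 other libraries, and the induced pair lay just below the uninduced pair. The constitutive log2 fold change was −1.75 ± 0.27 (adjusted p = 0.00322) and held without any 1 library. The averaged value was −0.93 ± 0.19 (adjusted p = 0.0148). That averaged call was lost without induced replicate 1 or 2 or uninduced replicate 1 or 2, at adjusted p between 0.0635 and 0.102.

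SEMA4A, a transmembrane semaphorin with roles in immune cells and retina, stood at 12.9 and 27.3 CPM in the constitutive DNp63 libraries, against 1.48 and 4.87 CPM in the GFP libraries. It had 3.83 and 9.84 CPM in the induced libraries, against 3.62 and 1.07 CPM in the uninduced libraries. The groups did not overlap in either system, and the replicates within a group differed widely. The log2 fold change was 2.56 ± 0.69 in the constitutive system (adjusted p = 0.0471) and 2.098 ± 0.50 averaged (adjusted p = 0.0336). In the inducible system it was 1.64 ± 0.71 and did not pass (adjusted p = 0.776). The averaged call was kept without constitutive DNp63 replicate 1 or uninduced replicate 1 and lost without any other library (adjusted p up to 0.160). The constitutive call was kept without constitutive DNp63 replicate 1 or uninduced replicate 2 and lost without any other library (adjusted p up to 0.150), with values from 1.90 without constitutive DNp63 replicate 2 to 3.75 without GFP replicate 2.

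SEMA4B, a related transmembrane semaphorin, had 36.6 and 49.7 CPM in the constitutive DNp63 libraries, against 21.4 CPM in each GFP library. It had 26.7 and 33.0 CPM in the induced libraries, against 29.99 and 23.9 CPM in the uninduced libraries, which overlapped. The constitutive log2 fold change was 1.01 ± 0.26 (adjusted p = 0.0376), and the averaged value of 0.58 ± 0.18 did not pass (adjusted p = 0.0912). The averaged value passed with the vector as a block (adjusted p = 0.0313) and without constitutive DNp63 replicate 1 (adjusted p = 0.0353). The constitutive call was kept without constitutive DNp63 replicate 1 (adjusted p = 0.0169) and lost without any other library (adjusted p up to 0.156).

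Of the secreted class 3 semaphorins, which act through neuropilin and plexin complexes, none passed. SEMA3B had 27.7 and 27.2 CPM in the constitutive DNp63 libraries, against 31.8 and 7.41 CPM in the GFP libraries. It had 13.7 and 10.2 CPM in the induced libraries, against 5.43 and 5.44 CPM in the uninduced libraries. GFP replicate 1 was as high as the constitutive pair, and the averaged value of 0.84 ± 0.36 did not pass (adjusted p = 0.236). It passed without GFP replicate 1 (1.51, adjusted p = 0.00445), with no filter on low counts (adjusted p = 0.0127) and with the vector as a block (adjusted p = 0.0480), and it was 0.46 without GFP replicate 2. SEMA3C had 4.57 and 25.02 CPM in the constitutive DNp63 libraries, against 11.5 and 8.89 CPM in the GFP libraries. It had 11.2 and 6.69 CPM in the induced libraries, against 4.43 and 4.08 CPM in the uninduced libraries. Its averaged value of 0.84 ± 0.43 (adjusted p = 0.329) turned on the constitutive pair. It was −0.016 without constitutive DNp63 replicate 2 and 1.21 without constitutive DNp63 replicate 1, where it passed (adjusted p = 0.0159).

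PLXND1, the plexin that receives SEMA3E and is known from vessel patterning, stood at 31.4 and 26.4 CPM in the constitutive DNp63 libraries, against 75.7 and 71.6 CPM in the GFP libraries. It had 86.7 and 76.7 CPM in the induced libraries, against 69.2 and 66.3 CPM in the uninduced libraries. The constitutive pair was lower than the other 6 libraries, and the induced pair was the highest. The constitutive log2 fold change was −1.35 ± 0.20 (adjusted p = 0.00272) and held without any 1 library. The inducible value was 0.27 ± 0.19 (adjusted p = 0.958). The averaged value of −0.54 ± 0.14 (adjusted p = 0.0460) joined effects of opposite sign, and its call was lost without any 1 library other than constitutive DNp63 replicate 1 (adjusted p up to 0.220).

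PLXNB3, a receptor of SEMA5A, stood at 25.7 and 30.3 CPM in the constitutive DNp63 libraries, against 13.3 and 8.26 CPM in the GFP libraries. It had 9.14 and 9.84 CPM in the induced libraries, against 4.43 and 3.21 CPM in the uninduced libraries. The DNp63 libraries lay above their own controls in both systems, by 1.41 ± 0.32 on the log2 scale in the constitutive (adjusted p = 0.0230) and 1.34 ± 0.34 in the inducible system (adjusted p = 0.240). The averaged value was 1.37 ± 0.23 (adjusted p = 0.00645), a call lost without uninduced replicate 2 (adjusted p = 0.0626). The constitutive call was lost without constitutive DNp63 replicate 2 (0.0538), GFP replicate 2 (0.159), induced replicate 1 (0.0530) or induced replicate 2 (0.0532).

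PLXNA1, the plexin with the highest mean CPM and a partner of neuropilins for class 3 semaphorins, had 345 and 296 CPM in the constitutive DNp63 libraries, against 284 and 269 CPM in the GFP libraries. It had 153 and 158 CPM in the induced libraries, against 202 and 175 CPM in the uninduced libraries. The 2 systems stood at different levels whatever the DNp63 state, and the averaged value was −0.03 ± 0.13. NRP2, a co-receptor for class 3 semaphorins and VEGF-C, had 229 and 198 CPM in the constitutive DNp63 libraries, against 126 and 331 CPM in the GFP libraries. It had 194 and 193 CPM in the induced libraries, against 155 and 174 CPM in the uninduced libraries. The GFP libraries bracketed the constitutive ones, and the averaged value was 0.06 ± 0.24. NRP1, the other neuropilin, was scarce at 0.571 to 3.10 CPM and did not pass.

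**Figure D3:**
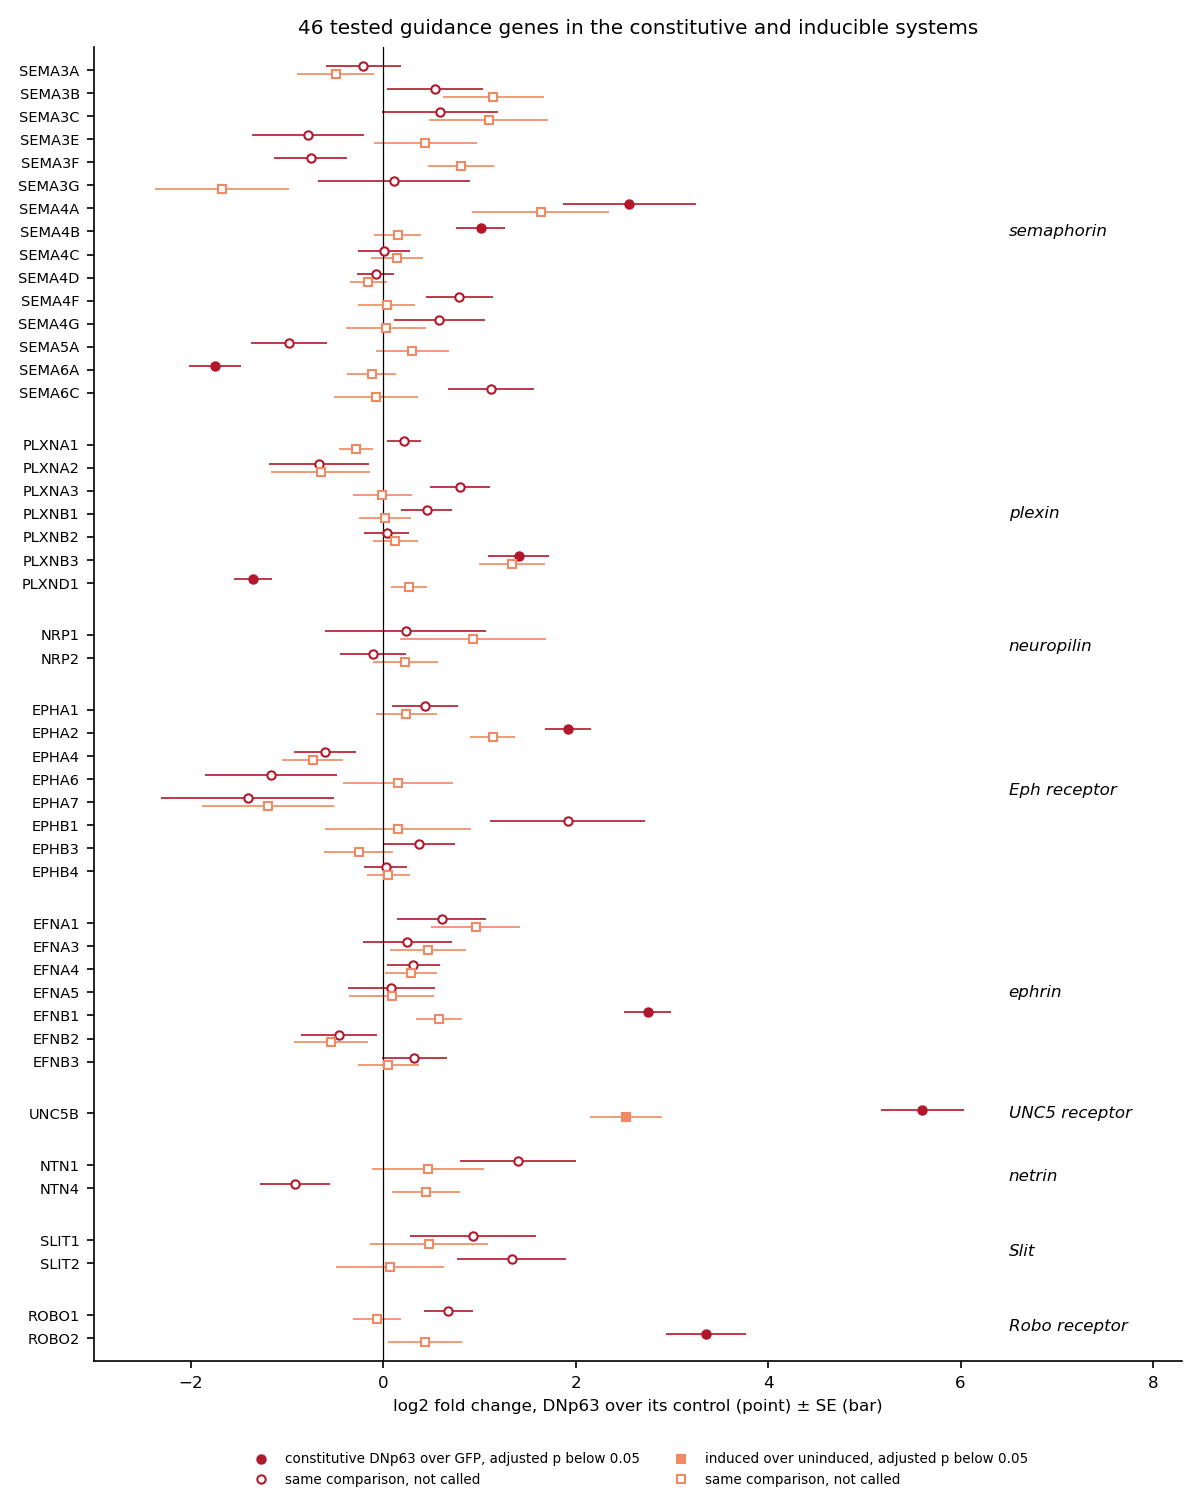
Log2 fold change with DNp63 in the constitutive and the inducible system for the tested guidance genes, with bars of 1 SE. UNC5B lies far to the right in both systems (5.60 and 2.52), while EFNB1, ROBO2, PLXND1 and SEMA6A lie far from 0 in the constitutive system and between −0.12 and 0.58 in the inducible one.

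The difference between the systems (induced effect minus constitutive effect) was tested directly, and 3 of 46 members passed, 6.52% beside 0.545% of all tested genes (0.293% higher and 0.252% lower). For UNC5B the effect was 2.52 in the inducible and 5.60 in the constitutive system, a difference of −3.08 ± 0.53 (adjusted p = 0.0374). For EFNB1 the effects were 0.58 and 2.75, a difference of −2.17 ± 0.33 (adjusted p = 0.0270). For PLXND1 they were 0.27 and −1.35, a difference of 1.62 ± 0.28 (adjusted p = 0.0343). ROBO2, with a difference of −2.92 ± 0.56 (adjusted p = 0.0559), and SEMA6A, with 1.63 ± 0.37 (adjusted p = 0.100), did not pass. With the vector as a block in the constitutive system both passed (adjusted p = 0.0106 for ROBO2 and 0.00157 for SEMA6A). All 3 calls were lost without any 1 library of the inducible system, at adjusted p from 0.145 to 0.287, and the EFNB1 and PLXND1 calls also without GFP replicate 2 (0.0644 and 0.0660). The UNC5B difference was −4.11 without GFP replicate 1 and −2.35 without GFP replicate 2, and stayed called. TP63 itself differed between the systems, and so did the delivery vector, the drug and the library depth, and these cannot be told apart.

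Between the controls, uninduced against GFP, none of the 46 members was called by edgeR's quasi-likelihood test, beside 0.00813% of all tested genes. At an unadjusted p of 0.05, 9 of the 46 members passed, a larger share than the 9.1% of all tested genes (1120 of 12303). DESeq2 called 1 member, EPHA2, beside 0.502% of its tested genes. EPHA2 was lower in the uninduced libraries by 1.16 ± 0.24 on the log2 scale (log2 fold change −1.16, adjusted p = 0.242), and passed with the vector as a block (adjusted p = 0.0157). All 7 tested plexins had values below 0, from −1.495 to −0.12, and none was called in the main fit. This was not particular to plexins, as 30 of the 46 tested members were below 0. The median of the tested members was −0.26, beside −0.01 over all tested genes. UNC5B had 0.44 (adjusted p = 0.803).

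When the 4 inducible libraries were fitted alone, with their own estimate of the spread, 7 members of 45 tested passed, where 6.43% of all genes tested in that fit were called. UNC5B rose (2.52 ± 0.15, adjusted p = 3.38e-13), as did EPHA2, PLXNB3 (1.35 ± 0.36, adjusted p = 0.0156), SEMA3B (1.15 ± 0.30, adjusted p = 0.0162) and SEMA3F (0.81 ± 0.23, adjusted p = 0.0264). EPHA4 fell (−0.73 ± 0.13, adjusted p = 0.000303), and so did EFNB2, the arterial ephrin that binds EPHB4 (−0.54 ± 0.17, adjusted p = 0.0480). SEMA3F had 21.0 and 19.3 CPM in the induced libraries, against 11.5 and 11.6 CPM in the uninduced libraries. EFNB2 had 27.5 and 29.5 CPM in the induced libraries, against 39.8 and 42.9 CPM in the uninduced libraries. The groups of these last 2 genes did not overlap, which adds no support, because both were picked from calls in these same libraries. The averaged value of EFNB2, −0.50 ± 0.28, passed with the vector as a block (adjusted p = 0.0280). When the 4 constitutive libraries were fitted alone, 5 of 43 tested members passed, beside 2.36% of all genes in that fit: UNC5B, EFNB1, EPHA2, ROBO2 and SEMA6A. PLXND1 (adjusted p = 0.0503), SEMA4A (0.0791), PLXNB3 (0.118) and SEMA4B (0.170) did not.

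Levels of different genes were compared per kilobase of exon, with lengths from GENCODE v29 on GRCh38, an annotation other than the one behind the counts. The ranks are those of group means. By the mean of the constitutive DNp63 libraries UNC5B ranked 1 of the 68 members, at 89.7 CPM per kb, followed by EPHA2 at 75.9 and SEMA4C at 73.6. SEMA4C differed within that pair, at 177 and 345 CPM before division by length. The order of these genes was therefore not the same in each library of the pair. In the GFP libraries UNC5B ranked 28, at 1.96 CPM per kb, and EPHA2 ranked 8. In the induced libraries UNC5B ranked 10, at 14.4 CPM per kb, and in the uninduced libraries it ranked 23, at 2.49. SEMA4C, a transmembrane semaphorin that binds plexin B2, ranked 1 in the GFP, induced and uninduced groups. EFNB1 ranked 5 in the constitutive DNp63 libraries and 16 in the GFP libraries, and SEMA6A ranked 12 and 2 in those groups.

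**Figure D4:**
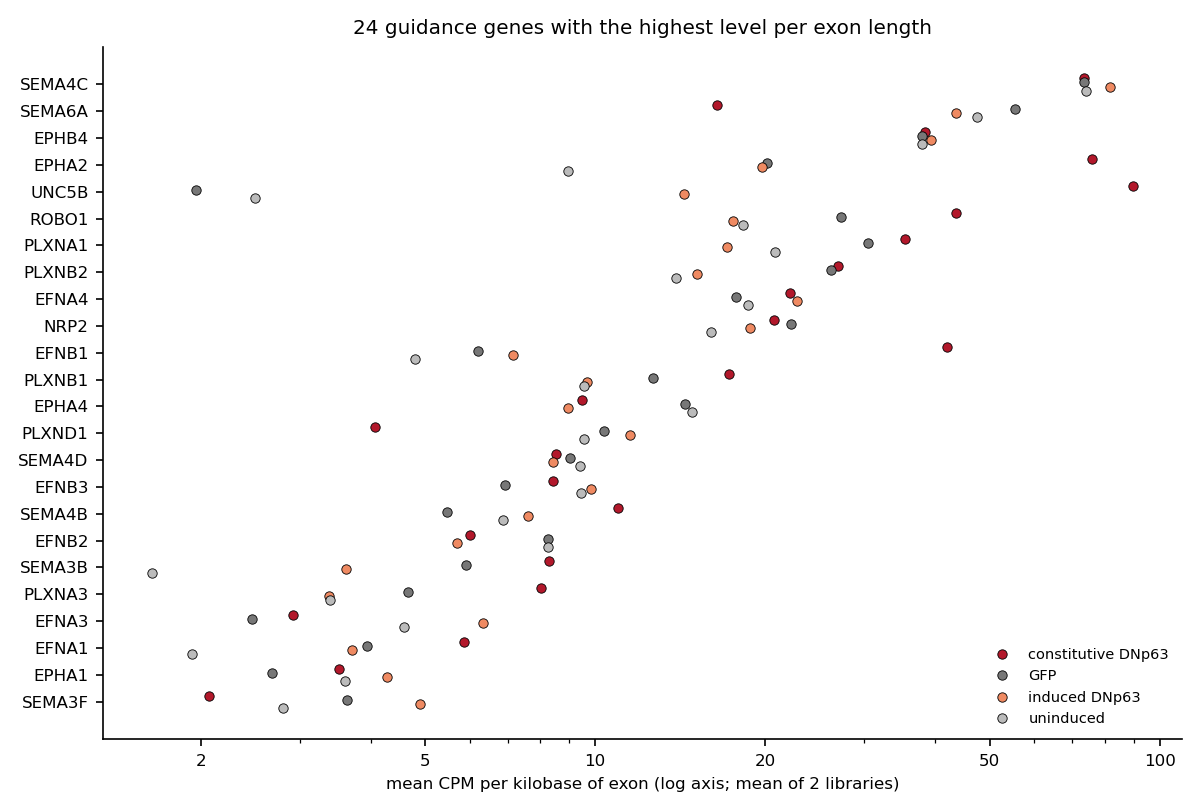
Mean level in CPM per kb of exon, on a log axis, of the 24 guidance genes with the highest mean, with 1 point for each of the 4 groups. UNC5B is at 89.7 CPM per kb in the constitutive DNp63 group and 1.96 CPM per kb in the GFP group. The group means of SEMA4C and EPHB4 stay close together, and the spread between the libraries of a group is not shown.

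The 22 members that could not be tested were SEMA3D, SEMA5B, SEMA6B, SEMA6D and SEMA7A among the semaphorins and PLXNA4 and PLXNC1 among the plexins. They were EPHA10, EPHA3, EPHA5, EPHA8, EPHB2 and EPHB6 among the Eph receptors and EFNA2 among the ephrins. UNC5A, UNC5C, UNC5D, NTN3, NTN5, SLIT3, ROBO3 and ROBO4 made up the rest. They had between 0 and 54 counts summed over all 8 libraries, and PLXNA4, UNC5C and ROBO4 had 0. SEMA6B had 16 counts summed over the induced libraries, against 4 over the uninduced libraries, a depth-adjusted ratio of 4.63 with a 95% counting interval of 1.49 to 19.0. SEMA6D had 1 count over the induced libraries, against 12 over the uninduced libraries, a ratio of 0.0965 with an interval up to 0.652. SLIT3 had 9 counts over the constitutive DNp63 libraries, against 0 over the GFP libraries, at least 2.57-fold higher with the floor of 3 counts taken over the group. The SEMA6B counts were 12 and 4 in the induced libraries, against 1 and 3 in the uninduced ones. These ratios are examples from the 22 members in 2 systems. The intervals of EPHA5 and EPHA10 in the constitutive system and of PLXNC1 and SLIT3 in the inducible one also excluded a ratio of 1. All of these intervals cover counting error only and compare libraries, not conditions.

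Of 112 other genes listed for the axon guidance pathway, 91 were tested, and averaged over the systems 9 rose, 8 fell and 74 did not pass, with a median log2 fold change of 0.02. Of all tested genes, 3.26% were called higher and 2.41% lower in that comparison. In the inducible system alone none of the 91 passed, where 0.284% of all tested genes did. Among co-receptors and other cues, 5 of 24 rose and 4 fell. GPC1, a glypican that binds Slits, rose by 1.85 ± 0.23 (adjusted p = 0.00110), and NEO1, the DCC relative that receives netrins and RGM proteins, rose by 1.87 ± 0.33 (adjusted p = 0.00875). GPC1 stood at 147 and 78.8 CPM in the constitutive DNp63 libraries, against 15.5 and 22.7 CPM in the GFP libraries. It stood at 42.2 and 33.4 CPM in the induced libraries, against 19.5 and 14.9 CPM in the uninduced libraries. SDC2, a syndecan, rose by 1.61 ± 0.39 on average (adjusted p = 0.0354). It had 179 and 43.3 CPM in the constitutive DNp63 libraries, against 15.9 and 10.8 CPM in the GFP libraries. Its induced (13.2 and 19.1 CPM) and uninduced values (12.9 and 15.7 CPM) overlapped. CHL1, a neural adhesion molecule of the L1 family, fell by 1.94 ± 0.20 (adjusted p = 0.000277). On average RGMA, a ligand of NEO1, fell by 1.07 ± 0.21 (adjusted p = 0.0129), and ALCAM fell by 1.15 ± 0.24 (adjusted p = 0.0185). For these last 2 genes the inducible groups overlapped. RGMA had 6.55 and 9.44 CPM induced, against 9.86 and 9.24 CPM uninduced, and ALCAM had 11.5 and 9.64 CPM against 9.66 and 13.3 CPM.

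Among the cytoplasmic transducers, 4 of 57 rose and 3 fell. CHN2, a Rac-inactivating protein related to the chimaerin that acts below EPHA4, fell by 2.13 ± 0.22 (adjusted p = 0.000275). It had 1.43 and 1.36 CPM in the constitutive DNp63 libraries, against 14.4 and 16.5 CPM in the GFP libraries. It had 14.9 and 17.3 CPM in the induced libraries, against 26.2 and 29.3 CPM in the uninduced libraries. DPYSL3, a collapsin response mediator, fell by 1.20 ± 0.16 (adjusted p = 0.00163), and TIAM1, an activator of Rac, rose by 0.99 ± 0.20 on average (adjusted p = 0.0151). TIAM1 had 78.0 and 106 CPM in the constitutive DNp63 libraries, against 16.6 and 28.0 CPM in the GFP libraries. Its induced (25.4 and 20.1 CPM) and uninduced values (23.3 and 23.5 CPM) overlapped. ARHGEF11, which is bound by B-type plexins, rose by 0.62 ± 0.14 (adjusted p = 0.0277), FARP1 fell by 0.51 ± 0.13 on average (adjusted p = 0.0413), and RHOD rose by 0.72 ± 0.19 (adjusted p = 0.0491). FARP1 had 59.4 and 69.1 CPM in the constitutive DNp63 libraries, against 139.7 and 141 CPM in the GFP libraries. It had 115 and 110.0 CPM in the induced libraries, against 108 and 101 CPM in the uninduced libraries, so its average joined effects of opposite sign. Among 10 sheddases and phosphatases 1 gene passed, PTPRO, a receptor phosphatase that acts on Eph receptors, which fell by 2.00 ± 0.19 (adjusted p = 0.000205). The calls of CHL1, GPC1, CHN2, DPYSL3 and PTPRO held without any 1 library. That of RHOD was lost whichever library was left out (adjusted p up to 0.285), and those of SDC2, FARP1, TIAM1, ARHGEF11, RGMA, ALCAM and NEO1 were each lost without some: SDC2 without either GFP, induced or uninduced library, FARP1 without GFP replicate 2 or any inducible-system library, and TIAM1 and ARHGEF11 without any inducible-system library. RGMA lost its call without induced replicate 1 or either uninduced library, ALCAM without either induced library or uninduced replicate 2, and NEO1 without GFP replicate 2, induced replicate 2 or uninduced replicate 2.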

How the data were processed

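The authors deposited raw read counts per gene for 8 poly(A)-selected directional RNA-seq libraries. Per the submitters' processing notes, TopHat2 2.1, the hg19 (GRCh37) build, HTSeq, SAMtools and DESeq2 were used; no source used here gives the annotation, the strand setting or any filters. Groups came from the sample labels. From the deposited counts, edgeR 4.0.16 (R 4.3.3) quasi-likelihood fits with TMM scaling were run over all 8 libraries and 4 groups, after a filter on low counts (minimum count 10) that left 12303 genes; 8601 genes had no count. Adjusted p-values are Benjamini-Hochberg over all tested genes, with a threshold of 0.05, and errors of log2 fold changes are SE. CPM are counts scaled to the TMM-adjusted library total. The scripts were tested on simulated data. With 2 libraries a group, precision rests on the spread shared by the 4 groups.

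The members and gene lists were chosen with earlier results of these data known. Members were named if called in any of the 5 comparisons, if highest in mean CPM in their family, or if among the 6 uncalled members whose averaged effect had the lowest p; up to 6 called genes of each pathway list were named. SEMA3F, EFNB2, NRP1, SEMA6C, PLXNB2 and the SEMA4C level were named after their values were seen. The count ratios given for SEMA6B, SEMA6D and SLIT3 were not picked by the naming rule either. Alternatives were DESeq2 1.42.0, other scalings and filters, fits of 2 groups alone, replicate blocks and leaving out each library. In the constitutive system the replicate number is also the vector (pLEX_306 or pLEX_307), shared by a DNp63 and a GFP library, whose deviations correlated at 0.220. In the inducible system the number is only a number (−0.033). The block on the vector was added after seeing the data. Intervals of count ratios are exact at 95%.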

Additional observations from a re-analysis of the deposited data

Results flagged for a closer look

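The effect of DNp63 differed between the inducible and the constitutive system, by the test of the difference itself, for 3 guidance genes. The difference (induced effect minus constitutive effect, log2 scale) was 1.62 for PLXND1, −2.17 for EFNB1 and −3.08 for UNC5B. For UNC5B the effect was smaller but in the same direction in the inducible system, and for PLXND1 the constitutive effect was below 0 and the inducible one did not pass. TP63 stood at 412 and 422 CPM in the induced libraries, against 1850.1 and 3816 CPM in the constitutive DNp63 libraries, and the part of this gap in the differences was not tested.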

How the results depend on the processing

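Of the values recomputed under other settings, 643 kept their direction and side of the threshold, 97 lost a call, 13 gained one and 6 changed sign. Without a filter on low counts, 4 members were called in the inducible system, 6 in the difference between systems and 5 between the controls, where 1.33%, 3.07% and 1.35% of all genes in that fit were called. DESeq2 called 2, 5 and 1 in these comparisons, beside 0.859%, 2.24% and 0.502% of its genes. Replicate blocks were tried in 3 forms. With the vector as a block in the constitutive system, 12 members were called in the averaged comparison (EFNB2, EPHA4, SEMA3B and SEMA4B gained), 12 in the constitutive (EPHA4, ROBO1 and SEMA6C gained), 2 in the inducible, 5 in the difference and 2 between the controls (EPHA2 and PLXNB2), and 28 other pathway genes; no member lost a call, and 11.6%, 15.8%, 1.32%, 3.84% and 0.845% of all genes were called. With pairs by number in both systems the counts were 9 in the averaged comparison (EPHA4 gained), 9 in the constitutive, 2 in the inducible and 5 in the difference. In that fit 8.45%, 11.4%, 0.707% and 2.19% of all genes were called. With one number over all libraries the counts of members were 8, 9, 1 and 4, and 0 between the controls. The shares of all genes were then 5.97%, 8.27%, 0.301%, 0.634% and 0.0163%. Fits of 2 groups alone called 5 members in the constitutive and 7 in the inducible system, beside 2.36% and 6.43% of all genes. Leaving out 1 library left 1 library in its group. The numbers of members and of other pathway genes called then moved. The share of all genes called moved as well, so this is not particular to the guidance genes. The values that changed sign were those of uncalled members. PLXNA1 ran from −0.092 to 0.021, with 0.018 without uninduced replicate 1 and 0.021 without constitutive DNp63 replicate 2. EPHB4 ran from −0.12 (without constitutive DNp63 replicate 2) to 0.17, with −0.041 without GFP replicate 2. SEMA3C ran from −0.016 (without constitutive DNp63 replicate 2) to 1.21, and NRP2 from −0.21 (without GFP replicate 1) to 0.49. The causes were not tested. Depth limits the 22 untested members.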
